A study of Mus musculus with 2 samples.

Results

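Autophagy delivers cytoplasm, damaged organelles and protein aggregates to the lysosome inside a double membrane, the autophagosome. A kinase complex starts the process, a lipid kinase complex marks the membrane from which the autophagosome grows, and a pair of ubiquitin-like conjugation systems attaches proteins of the Atg8 family to that membrane, where receptors that carry the cargo bind them. Microglia, the phagocytes of the brain, use parts of the same machinery to clear what they engulf, and loss of CD47 is known to raise autophagy in other cell types. The list examined here holds 34 genes of this machinery, chosen by name from knowledge of the pathway, with earlier results of these data known. Of these, 32 had at least 1 probe set that the array annotation gives to exactly 1 gene, out of 18193 genes so named on the array. *Optn*, which encodes the receptor optineurin, has no probe set named in the annotation used here, and the 3 probe sets that carry *Bnip3l* also carry a pseudogene and were left out. The 32 genes were read by 78 probe sets, each a set of short oligonucleotides designed to detect a gene or, for some, several related transcripts, of which 63 were expressed as defined below.

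The samples were brain mononuclear cells, obtained by digesting the tissue and separating the cells on a Percoll gradient. One pool held RNA of 7 WT mice aged 10 to 15 wks, and the other held RNA of 6 CD47 KO mice (the CD47 null genotype, *Cd47*-/-) aged 12 to 16 wks. All were given as male, no treatment is named, and animals and ages within a pool cannot be separated. Each pool was hybridised to 1 array. The spread between animals is therefore unknown and no difference described here was tested. The values are MAS5 signals, the linear brightness of a probe set, and they rank the brightness of probe sets rather than the abundance of transcripts of different genes. The Log2 ratio is that of the CD47 KO signal over the WT signal, and a value of 1 is a 2-fold difference. Expressed means a signal at or over the array median, 161 for WT or 146 for CD47 KO, on 1 array or both. Each gene is represented by the probe set whose signal was highest on average, here called its brightest.

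The knocked-out gene, *Cd47*, had Log2 ratios from -1.86 to -1.45 on its 5 expressed probe sets, so the arrays follow their labels. Markers of microglia were bright on both arrays, for example *Tmem119* with signals of 5273 and 5857 in WT and CD47 KO cells and *P2ry12* with 6873 and 7608. All 9 microglia markers found among the expressed genes were higher in CD47 KO cells, with a median Log2 ratio of 0.15 and a summed signal of 65748 in WT and 74565 in CD47 KO, although 7 of the 9 were higher after quantile normalization or loess. Neurons and astrocytes, whose transcripts were also bright, had medians of 0.09 over 10 and 0.28 over 7 markers. The largest shift of a marker list was that of the pituitary, whose 4 expressed markers were all lower in CD47 KO cells, with a median of -2.86 and summed signals of 12266 and 2328. Neutrophil markers, as bright in sum as those of microglia, had a median of -0.18 over 6 genes and summed signals of 68336 and 68456. Fibroblast and meningeal markers were lower, with a median of -0.82 over 8 genes and summed signals of 6679 and 4356, as were pericyte and smooth muscle markers (-0.51, summed signals 10817 and 6948), choroid plexus markers (-0.57, 28773 and 27395) and endothelial markers (-0.37, 8146 and 6914). In such mixed RNA, fewer cells of a type and less RNA per cell cannot be told apart, and the part of these shifts in the autophagy values was not tested.

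All 32 were expressed on their brightest probe set, 30 of them on both arrays. Log2 ratios lay within 0.5 of zero for 26 of the 32 autophagy genes (81.2%), beside 70.9% of all 11682 expressed genes. In the brighter 50% of genes these shares were 95.0% of 20 autophagy genes and 85.9% of all genes. The median was -0.07 for the autophagy genes and 0.003 for all expressed genes. In CD47 KO cells 13 of the 32 were higher and 19 lower, while 50.3% of all expressed genes were higher. More than 2-fold, 2 genes were higher, *Atg14* and *Atg16l1*, and none was lower, where the shares over all expressed genes were 3.53% higher and 5.41% lower. Both of these genes were expressed on the CD47 KO array alone, and a gene that enters only through the array on which it is high has to differ. The 30 genes expressed on both arrays lay between -0.95 (*Ambra1*) and 0.45 (*Uvrag*). Counting any expressed probe set added *Atg4b* to the genes more than 2-fold higher, which made 3 of 32 (6.85% of all genes), and again none was more than 2-fold lower (9.32% of all genes).

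**Figure D1:**
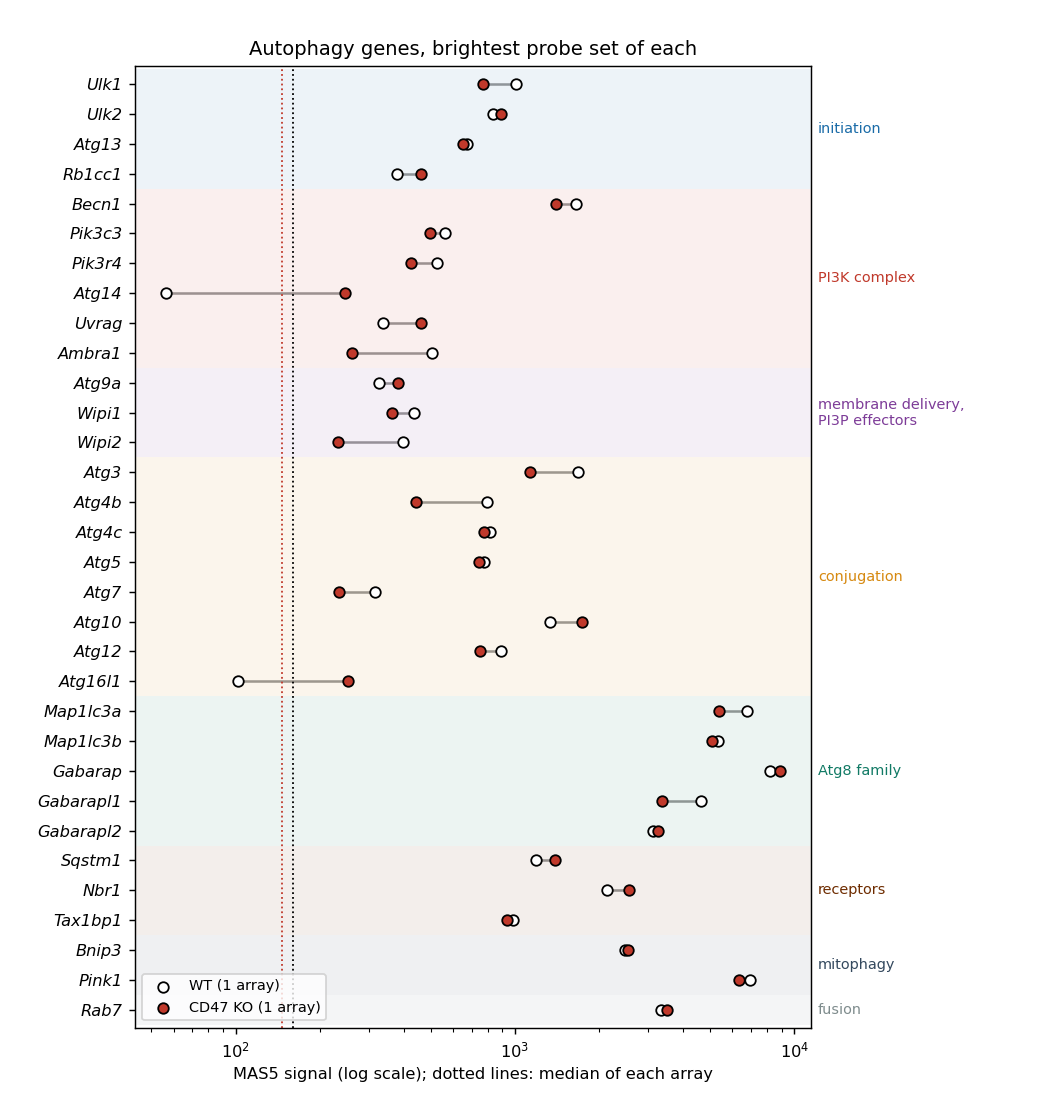
MAS5 signal (log scale) of the brightest probe set of each of the 32 autophagy genes, ordered by role, on the WT array (open) and the CD47 KO array (red), with 1 array per genotype and dotted lines at the array medians of 161 and 146. The 2 longest lines are those of *Atg14* (56.4 and 247) and *Atg16l1* (102 and 252), whose WT points alone lie left of the medians.

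The spread of the ratios depended on brightness. Over all expressed genes, the SD of the Log2 ratio was 0.97 in the dimmest 25% of genes by mean signal, 0.59 and 0.45 in the middle groups and 0.28 in the brightest 25%, and 23.9%, 8.42%, 2.81% and 0.616% of the genes in these groups passed 2-fold in either direction. The autophagy genes were mostly bright, with 3, 9, 9 and 11 genes in the 4 groups. The 2 genes past 2-fold were in the dimmest group, where 9.55% of all genes were more than 2-fold higher. In the brightest group 6 autophagy genes were higher and 5 lower, with an SD of 0.25 and a median of 0.04, beside a median of 0.05 over all genes of that group. In the dimmer of the middle groups 3 were higher and 6 lower, and 46.1% of all its genes were higher. In the brighter one 2 were higher and 7 lower, and 49.7% of all its genes were higher.

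**Figure D2:**
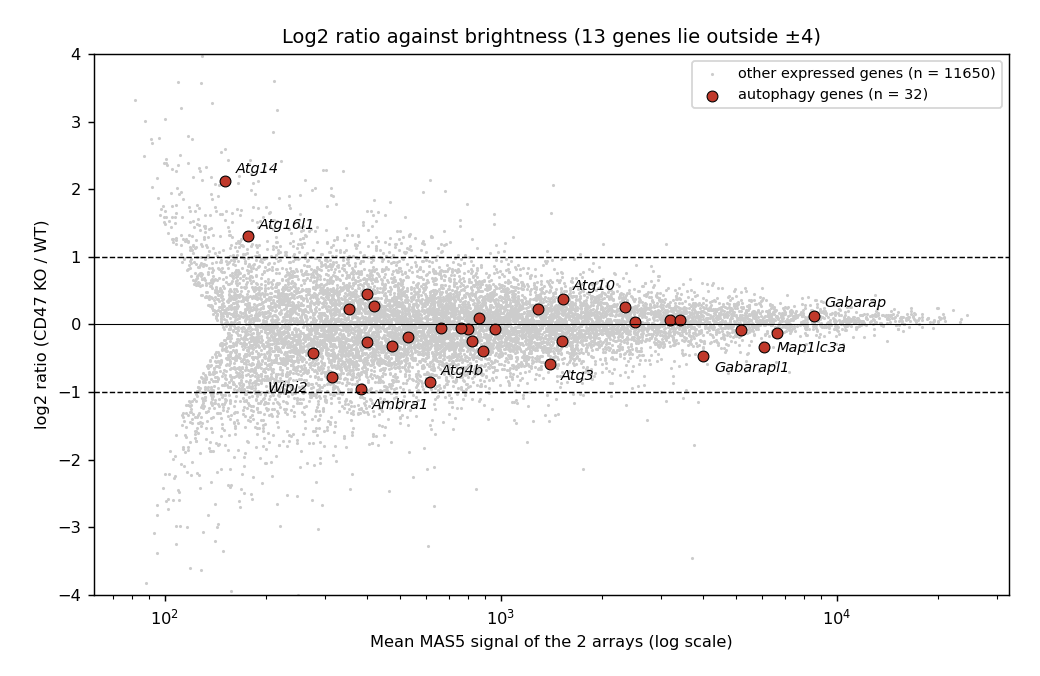
Log2 ratio (CD47 KO/WT) of each expressed gene against the mean MAS5 signal of the 2 arrays (log scale), with the 32 autophagy genes in red, 11650 other genes in grey and dashed lines at 2-fold. The grey cloud narrows from left to right, 30 of the red points lie between the dashed lines, and *Atg14* and *Atg16l1* lie above them at the dim end, where the empty wedge comes from the signal threshold.

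The promoters of the pathway are shown because many autophagy and lysosome genes are known targets of TFEB, a transcription factor that binds E-box sequences with the core CACGTG. Promoter windows of RefSeq (GRCm38.p6, 250 bases before to 50 bases after the annotated gene start) were at hand for 27 of the 34 genes. The core, which reads the same on both strands, was found in the windows of 5 of these genes (18.5%) and in those of 2187 of 27025 genes in the table (8.09%). The sites follow with 12 bases on each side, written along the strand of the gene, with the core in capitals.
Atg14: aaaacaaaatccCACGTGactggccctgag
Atg3, first site: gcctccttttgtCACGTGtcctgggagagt
Atg3, other site: ggagagtcgagtCACGTGaggccttaggtg
Atg5: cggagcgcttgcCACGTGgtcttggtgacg
Atg7: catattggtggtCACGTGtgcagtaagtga
Bnip3: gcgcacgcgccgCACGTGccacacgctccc

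The windows lie at chr14:47568385-47568684 on the minus strand (*Atg14*), chr16:45158579-45158878 on the plus strand (*Atg3*), chr10:44268089-44268388 on the plus strand (*Atg5*), chr6:114670846-114671145 on the plus strand (*Atg7*) and chr7:138909457-138909756 on the minus strand (*Bnip3*). The core begins 1 base before the annotated start of *Atg14*, 14 bases before that of *Atg5* and 132 bases before that of *Atg7*. The Log2 ratios of the 5 genes had no common direction. They were 2.13 for *Atg14*, 0.04 for *Bnip3*, -0.06 for *Atg5*, -0.43 for *Atg7* and -0.58 for *Atg3*. A match of letters is a description of the window and does not show that a factor binds there.

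The genes of the initiation complex differed little. *Ulk1*, a kinase that starts autophagosome formation, had signals of 1005 (WT) and 768 (CD47 KO) and a Log2 ratio of -0.39, while its other probe set had 183 and 185. *Ulk2*, its relative, had 832 and 889 (0.09), and its 2 other expressed probe sets had ratios of 0.07 and -0.11. *Atg13*, a scaffold of the complex, had 675 and 654 (-0.05), with -0.02 on the other expressed probe set. Both scaffolds and both kinases were therefore within 0.5 of zero on the brightest probe set. *Rb1cc1*, which encodes the scaffold FIP200, had 380 and 461 (0.28) but 280 and 154 (-0.86) on the other expressed probe set, so its probe sets pointed in opposite directions.

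The lipid kinase complex held the widest spread of the 8 roles, from 2.13 to -0.95 over 6 genes, with a median of -0.21. *Atg14*, the subunit that directs the kinase to the site of autophagosome formation, had a signal of 56.4 in WT and 247 in CD47 KO cells, a 4.38-fold difference. The WT signal lay below the array median, and the gene has a single probe set in the annotation, so no other probe set bears on it. With the 25th percentile of each array added to its signals, the Log2 ratio was 1.50. Of the genes in the dimmest 25%, 3.94% had a larger ratio in either direction. *Uvrag*, the subunit that takes the place of Atg14 in the endosomal form of the complex, had 337 and 462 (0.45).

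The genes of the catalytic core of the same complex differed little on their brightest probe sets. *Pik3c3*, the lipid kinase VPS34 itself, had 563 and 497 (-0.18), and *Pik3r4*, its regulatory kinase-like subunit, had 526 and 423 (-0.31). Of genes of like brightness, 73.2% had a larger ratio in either direction than *Pik3c3* and 54.8% a larger one than *Pik3r4*. *Becn1*, which encodes Beclin 1, had 1653 and 1400 (-0.24) on its brightest probe set, 928 and 1087 (0.23) on the next and 176 and 90.0 (-0.97) on the dimmest expressed one. *Becn1* was thus near equal on its bright probe sets, with opposite signs. *Ambra1*, a regulator of Beclin 1 and of ULK1, had the lowest ratio of the list, with 505 in WT and 262 in CD47 KO cells (-0.95). Its 2 other probe sets, with signals of 103 or less, were below the threshold on both arrays and had positive ratios (1.36 and 1.55).

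Of the membrane delivery genes, *Atg9a*, which encodes a membrane protein of the vesicles that seed the autophagosome, had 326 and 381 (0.23). *Wipi1* and *Wipi2* encode proteins that bind the lipid made by the kinase complex. *Wipi1* had 437 and 363 (-0.27), and its 4 expressed probe sets ranged from -0.32 to 0.39. *Wipi2* had 398 and 232 (-0.78) on its brightest probe set, yet its dimmer probe sets had 253 and 333 (0.40) and 196 and 160 (-0.29). The order of WT and CD47 KO therefore depended on the probe set for both *Wipi* genes.

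Among the 8 conjugation genes the median Log2 ratio was -0.16, with 6 lower and 2 higher on the brightest probe set. *Atg7*, the activating enzyme of both conjugation systems, had 316 and 235 (-0.43), and 168 and 164 on its other expressed probe set. *Atg3*, the enzyme that transfers Atg8 proteins to lipid, had 1684 and 1128 (-0.58) on a bright probe set but 176 and 318 (0.86) on a dim one. *Atg10*, the corresponding enzyme for *Atg12*, was the only other conjugation gene that was higher besides *Atg16l1*, with 1333 and 1737 (0.38). *Atg12*, the ubiquitin-like protein of that branch, had 889 and 751 (-0.24) and, on its other expressed probe set, 345 and 460 (0.41). *Atg5*, its acceptor, had 776 and 746 (-0.06), with -0.49 and 0.28 on the others.

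*Atg16l1*, which carries the Atg12-Atg5 conjugate to the membrane, had signals of 102 (WT) and 252 (CD47 KO), a 2.48-fold difference. Its WT signal was below the array median. The other *Atg16l1* probe set was below the threshold on both arrays, with 91.8 and 69.5, and pointed the other way (-0.40). With the 25th percentile added, the ratio of the brighter probe set was 0.99, just under 2-fold. *Atg4b*, the main protease that primes Atg8 proteins, had the widest range among expressed probe sets. Its brightest probe set had 794 and 441 (-0.85), while the next had 208 and 455 (1.13), and their mean was 0.14. *Atg4c*, a related protease, had 817 and 778 (-0.07), with -0.56 on a dimmer probe set.

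All 5 Atg8 family genes were among the brightest 25% of expressed genes. *Gabarap* had 8195 and 8919 (0.12), *Gabarapl2* had 3121 and 3263 (0.06) and *Map1lc3b*, which encodes the LC3B protein commonly used to follow autophagosomes, had 5340 and 5072 (-0.07). These 3 genes were nearly equal in the genotypes. The 3 bright probe sets of *Map1lc3b* had ratios from -0.07 to -0.12, while a dim one had 97.5 and 152 (0.64). *Map1lc3a* was lower on both of its probe sets, with 6772 and 5391 (-0.33) and with 2830 and 1571 (-0.85). The brighter of these carries the suffix _x_at, which marks probes that may also match other transcripts. *Gabarapl1* had 4640 and 3365 (-0.46) on 1 probe set and 3266 and 3193 (-0.03) on the other. Of the brightest 25% of all genes, 8.46% had a larger ratio in either direction than *Gabarapl1* on the first, and 18.4% a larger one than *Map1lc3a*.

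Of the 3 cargo receptors, 2 were higher. *Sqstm1*, which encodes the ubiquitin-binding receptor p62, had 1194 and 1393 (0.22) and, on the other probe set, 349 and 475 (0.45). *Nbr1*, a related receptor, had 2128 and 2556 (0.26) and 710 and 752 (0.08). These were the only genes of the list with more than 1 expressed probe set that were higher on all of them, 2 of 22. On the whole array 1274 of 5499 such genes were higher on all. *Tax1bp1*, a receptor for ubiquitinated cargo, had 983 and 937 (-0.07), but its dimmer probe sets had ratios of 0.24 and 0.37.

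The mitophagy genes, which act in the removal of mitochondria, were near equal. *Bnip3*, a receptor on the outer mitochondrial membrane, had 2473 and 2540 (0.04). *Pink1*, the kinase that labels damaged mitochondria, had 6925 and 6350 (-0.13) and 6270 and 6128 (-0.03). *Rab7*, a GTPase needed for fusion with the lysosome, had 3340 and 3492 (0.06) and 2170 and 1964 (-0.14).

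Probe sets of the same gene showed how far apart ratios of a gene can lie within the pair of arrays. They may read different transcripts, so they are not repeats of a measurement. Of the 22 autophagy genes with 2 or more expressed probe sets, 14 (63.6%) had ratios in both directions, as did 3060 of 5499 such genes on the whole array (55.6%). The median distance between the highest and lowest ratio of a gene was 0.46 for the autophagy genes and 0.54 for all genes. The 6 of these 22 genes that were lower on every expressed probe set were *Atg13*, *Atg4c*, *Atg7*, *Map1lc3a*, *Gabarapl1* and *Pink1*. On the whole array 1165 of the 5499 genes were lower on every expressed probe set. Neither *Atg14* nor *Atg16l1* had another expressed probe set.

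**Figure D3:**
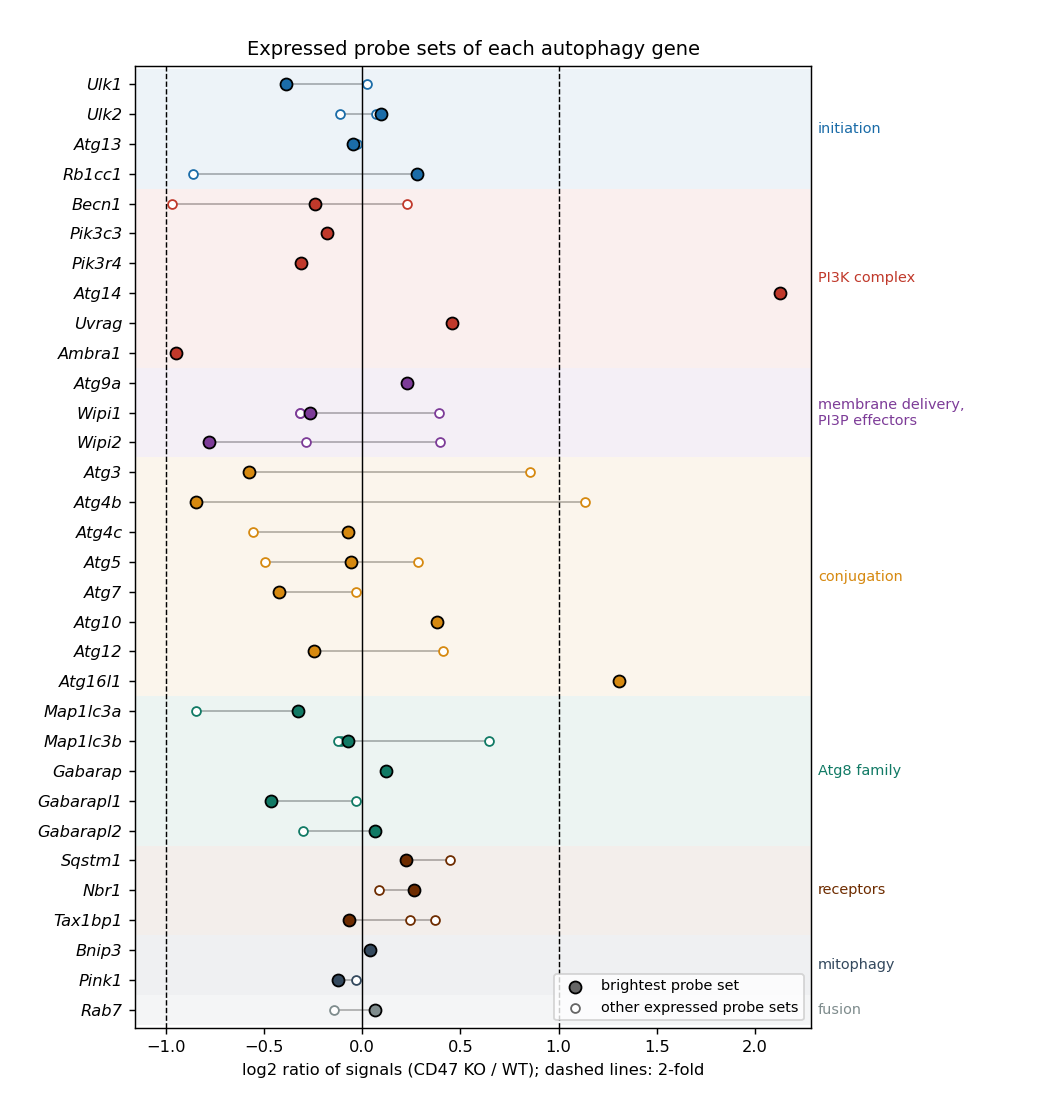
Log2 ratio (CD47 KO/WT) of each expressed probe set of the 32 autophagy genes, with the brightest probe set filled, the others open and dashed lines at 2-fold. Lines cross zero for 14 of the 22 genes with more than 1 expressed probe set, most widely for *Atg4b* (-0.85 to 1.13), and the points past 2-fold are those of *Atg14*, *Atg16l1* and the dimmer *Atg4b* probe set.

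Other genes of the pathway were taken from 4 further lists, also chosen with earlier results of these data known. Of 31 further autophagy genes, 25 were expressed, 11 higher and 14 lower, with a median of -0.02. More than 2-fold, 2 were lower and none higher. Of all expressed genes, 50.3% were higher, 3.53% more than 2-fold higher and 5.41% more than 2-fold lower. *Stx17*, the membrane fusion protein that joins autophagosomes to lysosomes, had 591 in WT and 243 in CD47 KO cells (-1.28). Its other expressed probe sets had -1.16, -0.66 and 0.06. *Calcoco1*, a receptor for fragments of the endoplasmic reticulum, had 1683 and 732 (-1.20) on its only expressed probe set. *Rubcn*, which encodes Rubicon, an inhibitor of autophagosome maturation, had 190 and 373 (0.98). *Atg2b*, a lipid transfer protein, had 223 and 125 (-0.83), and its dimmer probe set pointed the other way with 82.0 and 222 (1.44).

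Of 36 regulators in the mTORC1 and AMPK pathways, the nutrient and energy sensors that restrain or start autophagy, 32 were expressed, 17 higher and 15 lower, with a median of 0.03. *Mtor* itself had 892 and 955 (0.10). *Deptor*, an inhibitor of mTOR, was the only one past 2-fold, with 407 and 894 (1.13), but its 4 other expressed probe sets lay between -0.32 and 0.51. *Prkab2*, a regulatory AMPK subunit, had 414 and 729 (0.82), but 291 and 228 (-0.35) on its next probe set and 55.3 and 152 (1.45) on a dim one. *Prkaa2*, a catalytic one, had 280 and 167 (-0.75), whereas its dimmer probe set had 58.4 and 168 (1.52). *Prkag2*, the remaining AMPK subunit type, had 1582 and 1007 (-0.65), with -0.08 and -2.21 on its dimmer probe sets. Of 8 TFEB and FOXO transcription factor genes, 7 were expressed, 3 higher and 4 lower, and none passed 2-fold. *Tfeb* was dim, with 94.8 and 159 (0.74), and *Foxo1* had 1099 and 738 (-0.57). The WT signal of *Tfeb* was below the array median, so *Tfeb* was expressed on the CD47 KO array alone. Like *Atg14* and *Atg16l1*, it entered only through the array on which it was high. Its place among the 3 higher genes therefore cannot be separated from the signal threshold.

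The lysosome list differed in its balance. Of 41 genes listed, 36 were expressed, 29 of them higher and 7 lower, with a median of 0.12. After quantile normalization or loess, 26 were higher and 10 lower, with medians of 0.07 and 0.06. None passed 2-fold. The highest were *Npc1*, a cholesterol exporter of the lysosome, with 1362 and 2364 (0.80), *Naglu*, a glycosidase, with 558 and 892 (0.68), and *Neu1*, a sialidase, with 481 and 701 (0.54) and 0.88 on its other probe set. *Ctsd*, the protease cathepsin D, had 12910 and 14279 (0.15), and the membrane proteins *Lamp1* and *Lamp2* had 0.14 and 0.13. These ratios, each of the brightest probe set, lay within the range of the 18 hybridization control probe sets, -0.07 to 0.15. The dimmer expressed *Lamp2* probe sets had 0.22, 0.30 and 0.61, above that range. Of the 27 lysosome genes in the brightest 25%, 23 were higher, beside 60.4% of all genes and 6 of 11 autophagy genes in that group. Microglia markers were higher in the same cells, as given above, and the difference between the autophagy and lysosome lists was not tested.

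**Figure D4:**
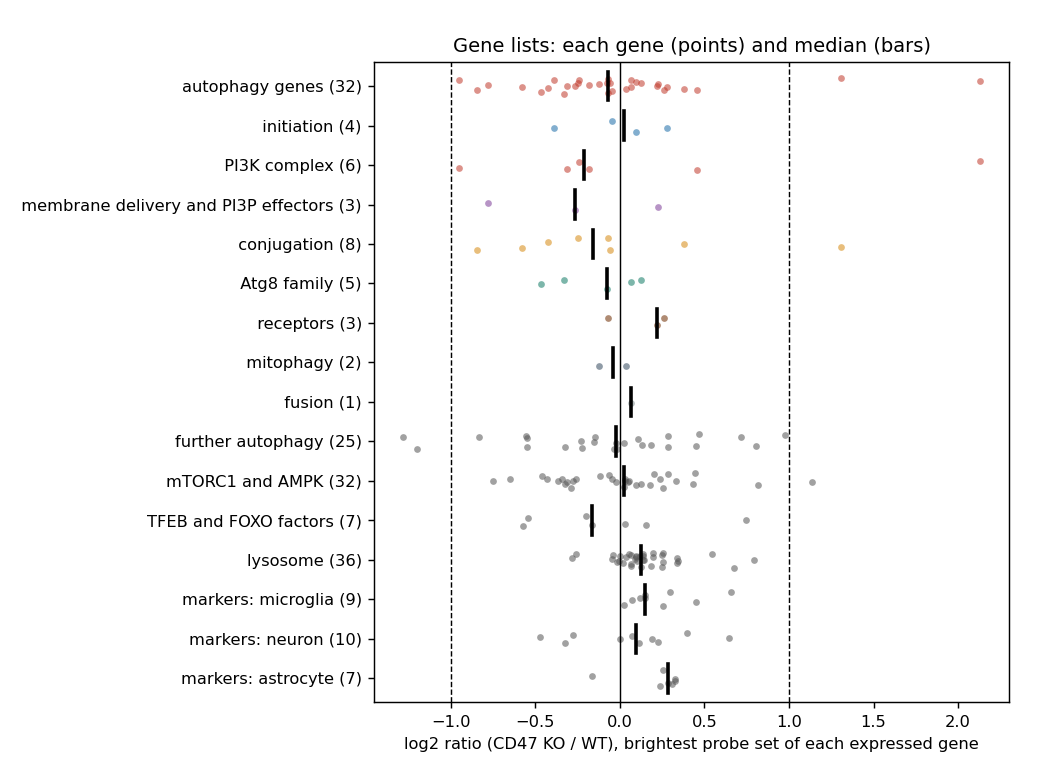
Log2 ratio (CD47 KO/WT) of each expressed gene (points, brightest probe set) and the median (bars) of the autophagy genes, their roles, 4 further pathway lists and the markers of microglia, neurons and astrocytes, with the number of genes in parentheses and dashed lines at 2-fold. The median of the autophagy genes lies at -0.07 and that of the lysosome genes at 0.12, beside 0.15 for the microglia markers.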

How the data were processed

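Brain mononuclear cell RNA of 7 WT and 6 CD47 KO mice was pooled by genotype, amplified from 20 ng and hybridised to 1 Affymetrix mouse array per pool. The authors processed the scans with MAS5 in the Expression Console Software (version not given in the sources used here), and the deposited values are linear signal intensities for 45101 probe sets, 64 of them controls. Each array had been scaled to a trimmed mean of 500.002 (2% of values trimmed from either tail), and 18 hybridization control probe sets had Log2 ratios from -0.07 to 0.15. With 1 array per genotype, no error between samples can be given.

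Genes were named from the platform annotation, which gives 1 symbol to 34945 probe sets and several to 932. Log2 ratios were taken from the deposited signals with no offset, the brightest probe set stood for a gene, and expressed meant reaching the array median on at least 1 array. No test was possible with 1 array per genotype, and 11 alternatives to these choices were computed. The calculation was tested on simulated arrays. Every listed autophagy gene is named. Of the other pathway lists, genes past 2-fold, up to 4 with the largest ratios per list, and *Tfeb*, *Mtor*, *Lamp1*, *Lamp2* and *Ctsd* are named, and cell type markers where they bear on a result. Markers of oligodendrocytes, monocytes, T cells, B cells and erythroid cells had median Log2 ratios of 0.06, -0.29, -0.18, -0.34 and 0.47. The members and lists were chosen with earlier results of these data known. Python 3.11.15, pandas 2.3.3, scipy 1.17.1 and statsmodels 0.14.6 were used.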

Additional observations from a re-analysis of the deposited data

How the results depend on the processing

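The median Log2 ratio of the autophagy genes stayed between -0.08 and -0.03 under the 11 alternatives (signal threshold, normalization, low signals, choice of probe set), and none of them put a gene more than 2-fold lower. The number more than 2-fold higher was 0 with the 75th percentile as threshold (where 8 genes were higher in all) or the median required on both arrays, 1 with the 25th percentile added, and 1 with the probe set of the next highest signal (where 12 were lower). *Atg14* ranged from 1.50 to 2.29 and *Atg16l1* from 0.99 to 1.43 where they were kept. The conjugation median was 0.11 with the mean over expressed probe sets and 0.19 with the next brightest, under which the lipid kinase complex had 0.23 (1 gene), the further autophagy list 0.13 and the lysosome list 0.25. Where probe sets with the suffixes _s_at, _x_at and _a_at were left out, *Becn1* had 0.23 and the lipid kinase complex median was 0.02. The lysosome median was 0.07 after quantile normalization and 0.06 after loess. With the next brightest probe set, 1 further autophagy gene was more than 2-fold higher and 1 lower. With the same choice 1 lysosome gene was more than 2-fold higher and 1 mTORC1 and AMPK gene lower. The further autophagy list also had 1 gene more than 2-fold higher with no threshold, quantile normalization, loess or without _s_at, _x_at and _a_at probe sets, and 1 lower with the mean over probe sets. The mTORC1 and AMPK list had 0 higher with the mean or without those suffixes. Among single autophagy genes, 14 of the 86 values under the 3 alternatives in the choice of probe set moved by more than the SD of genes of like brightness, 10 of them with the probe set of the next highest signal (22 genes). No value moved so far under the other 8 alternatives, most of which leave the ratio of a gene as it was or nearly so. The causes were not tested. No paired analysis was possible because each genotype has 1 array.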
